A study of Mus musculus with 4 samples.

Results

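Lcn2 and 7 other genes of the acute phase response and the complement cascade were followed across 2 mouse melanocyte lines. The other genes were Saa3, Hp, Ptx3, C3, Cfb, C1s1 and Steap4. They are part of 18193 genes that the platform annotation names with a single symbol. Every probe set annotated to exactly 1 of these symbols was taken, which gave 9 probe sets for 7 of the 8 genes, and C3 was not analysed here. The list was chosen by measured differences between the lines, which were known for these arrays when it was drawn up, so differences of these genes between the lines are given as a description without a test.

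RNA was measured on 4 Affymetrix mouse expression arrays, 1 labelled sample of total RNA each. Both lines are skin melanocytes of a Balb/c background grown in serum-containing medium with the phorbol ester TPA. The non-pigmented line (2 arrays) carries a point mutation of the tyrosinase gene on both alleles. The pigmented line (2 arrays) is wild type after correction of that mutation. Whether either line is 1 clone, and whether its arrays came from separate cultures, is not given in the labels, so errors and p-values reflect the spread of these samples alone, and that spread may be technical. Values are the authors' probe set signals, a linear intensity scaled to the same trimmed mean of 500.002 on every array, and differences are pigmented minus non-pigmented on log2(signal + 16).

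The median probe set signal lay between 99.7 and 130 on the 4 arrays. Tyr had signals of 214 and 67.2 on the non-pigmented and 17306 and 11698 on the pigmented arrays, which checks the labels only in part, as the mutation changes a base and not necessarily the amount of RNA. Of 12 melanocyte markers, 12 had a positive difference, with a median of 3.18, and 7 were higher in the pigmented line by limma. Sox10 had the smallest difference, 0.16, at 8268 and 8558 against 8602 and 10232. Kit, the stem cell factor receptor of melanocytes, was at 62.4 and 72.1 on the non-pigmented arrays, around the filter of signal 70.7 described below. On the pigmented arrays Kit was at 5086 and 3460. The Gapdh control ratio of 3′ to 5′ signal was 0.903 and 0.864 in replicates 1 of the non-pigmented and pigmented line, but 20.2 and 16.8 in replicates 2. Replicates 1 are called the intact pair below, and replicates 2 the pair with low 5′ signal. These names, and that of the integrity pair, go by this ratio alone, and the cause of the ratios was not tested. The array titles carry 2 dates that cross these pairs, with non-pigmented replicate 1 and pigmented replicate 2 on the first date.

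The acute phase response is a change in secreted proteins that follows injury or infection. It is best known from the liver, where interleukin 6 acting through STAT3 and C/EBP factors, and interleukin 1 acting through NF-κB, induce its genes, but epithelial and stromal cells also make several of these proteins. Lipocalin 2 binds bacterial siderophores and so keeps iron from microbes, serum amyloid A3 is an apolipoprotein-like protein made outside the liver in mice, haptoglobin captures free haemoglobin, and pentraxin 3 is a soluble pattern recognition protein. In the complement cascade, C1s is the protease of the C1 complex that cleaves C4 and C2 in the classical pathway, and factor B is the protease precursor of the alternative pathway. Steap4 is a membrane metalloreductase of iron and copper that is induced by inflammatory cytokines.

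The promoters of the 4 genes with a probe set on which both pigmented arrays lay below both non-pigmented arrays are shown because these probe sets shared that order. They are RefSeq windows of build GRCm38.p6, each 300 bases from 250 before the transcription start to the start and the bases after it, written 5′ to 3′ on the gene's strand. Capitals mark matches on either strand to the letters searched, where N is any base. They were TTNNGNAA for C/EBP, TTCNNNGAA for STAT and TGANTCA for AP-1, and motifs of 10 letters for NF-κB and IRF, whose matches are printed in the next paragraph. The windows are chr2:32387690-32387989 for Lcn2, chr7:46715627-46715926 for Saa3 and chr6:124542310-124542609 for C1s1 (all minus strand), and chr3:66219637-66219936 for Ptx3 (plus strand).
Lcn2: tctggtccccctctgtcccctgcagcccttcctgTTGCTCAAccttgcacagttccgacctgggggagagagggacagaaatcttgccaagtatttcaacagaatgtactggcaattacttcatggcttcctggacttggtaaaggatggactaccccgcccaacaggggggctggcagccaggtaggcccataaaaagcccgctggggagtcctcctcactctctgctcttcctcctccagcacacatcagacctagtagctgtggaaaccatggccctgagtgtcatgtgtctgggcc
Saa3: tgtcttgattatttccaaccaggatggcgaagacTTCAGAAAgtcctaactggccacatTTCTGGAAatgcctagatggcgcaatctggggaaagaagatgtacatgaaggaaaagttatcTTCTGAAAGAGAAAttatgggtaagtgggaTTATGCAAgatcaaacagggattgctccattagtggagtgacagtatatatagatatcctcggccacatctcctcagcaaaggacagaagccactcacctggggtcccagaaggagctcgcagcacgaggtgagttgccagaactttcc
C1s1: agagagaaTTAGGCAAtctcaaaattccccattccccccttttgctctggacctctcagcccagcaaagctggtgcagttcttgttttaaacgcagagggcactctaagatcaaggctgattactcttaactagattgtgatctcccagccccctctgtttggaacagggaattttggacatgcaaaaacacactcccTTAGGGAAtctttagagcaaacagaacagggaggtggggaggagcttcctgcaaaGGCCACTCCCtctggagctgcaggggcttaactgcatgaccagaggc
Ptx3: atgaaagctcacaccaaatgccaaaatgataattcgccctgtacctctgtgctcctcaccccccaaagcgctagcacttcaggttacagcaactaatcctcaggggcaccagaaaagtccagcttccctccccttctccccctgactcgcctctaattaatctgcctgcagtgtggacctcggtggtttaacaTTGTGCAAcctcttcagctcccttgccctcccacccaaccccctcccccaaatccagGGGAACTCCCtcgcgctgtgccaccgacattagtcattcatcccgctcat

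RefSeq promoters were found for 5 of the 7 genes, Steap4 being the fifth, and C1s1 had a second window that overlaps the first. All 5 held the C/EBP letters, which 40.7% of 32851 promoters of this length hold. Lcn2 had 1 match, printed as TTGCTCAA, from position -216 to -209, with the first transcribed base counted as 0. Its letters matched on the strand opposite to the gene's. Saa3 had 4 C/EBP matches, of which the third overlapped a match to the IRF letters, GAAAGAGAAA at -125 to -116. The IRF letters are held by 3.44% of promoters. The NF-κB letters were found in Ptx3, C1s1 (printed as GGCCACTCCC, matching on the strand opposite to the gene's) and Steap4, against 20.7% of all promoters. The Ptx3 match, GGGAACTCCC, reads as a match on both strands and begins at the first transcribed base. The STAT letters occurred in Steap4 alone among the 5 (8.30% of all promoters) and the AP-1 letters in none of them (7.81% of all promoters). These matches are descriptions of letters in a window and not sites of binding.

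Lcn2 (Entrez gene 16819) was abundant in the non-pigmented line and lay below the median signal of both pigmented arrays (130 and 126). Its probe set had signals of 4388 and 15745 on the non-pigmented arrays and of 35.0 and 86.8 on the pigmented arrays. Both non-pigmented arrays were far above both pigmented arrays, and in either line replicate 2 was the higher. On the log2 scale the mean was 13.02 ± 1.30 (SD, n = 2) in the non-pigmented and 6.18 ± 0.72 (SD, n = 2) in the pigmented line, a log2 difference of -6.85 ± 1.05 (SE from the array SDs). That is a 115-fold lower signal, and as the pigmented mean lay below the filter value of 6.44 the size depends on the pseudocount (68.7-fold with 64 and 148-fold with 1). Without single arrays the fold ranged from 60.8 (non-pigmented replicate 2 left out) to 218 (non-pigmented replicate 1 left out). By date it was -5.42 (first) and -8.27 (second), and it was -6.43 within the intact and -7.26 within the low 5′ pair. In RNA from bulk cultures, fewer cells that make a transcript and less of it per cell cannot be told apart.

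Saa3, the acute phase apolipoprotein, showed the same order of the lines at a much smaller size. Its signals were 105 and 220 on the non-pigmented and 54.9 and 87.5 on the pigmented arrays. The groups did not overlap, but non-pigmented replicate 1 and pigmented replicate 2 were close. The log2 difference was -0.98 ± 0.55, at -0.22 on the first and -1.73 on the second date, so nearly all of it lay in 1 date.

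Hp, which encodes haptoglobin, had a signal of 171 on non-pigmented replicate 2 and was dim elsewhere, at 4.29 on non-pigmented replicate 1 and 21.8 and 2.57 on the pigmented arrays. The groups overlapped, and the log2 difference of -1.22 ± 1.68 rested on that single array. Within the intact pair its sign was turned, at 0.90, against -3.33 within the low 5′ pair.

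Ptx3, the long pentraxin, was covered by 2 probe sets that disagreed. Probe set 1418666_at had signals of 85.6 and 84.7 on the non-pigmented and 23.6 and 42.8 on the pigmented arrays, a log2 difference of -1.07 ± 0.29. The groups did not overlap, yet the mean of 6.13 fell short of the filter. Probe set 1456903_at lay between 7.46 and 13.6 on all 4 arrays with overlapping groups, at a difference of 0.13 ± 0.15, whose sign turned to -0.12 after centring each array on its median.

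**Figure D1:**
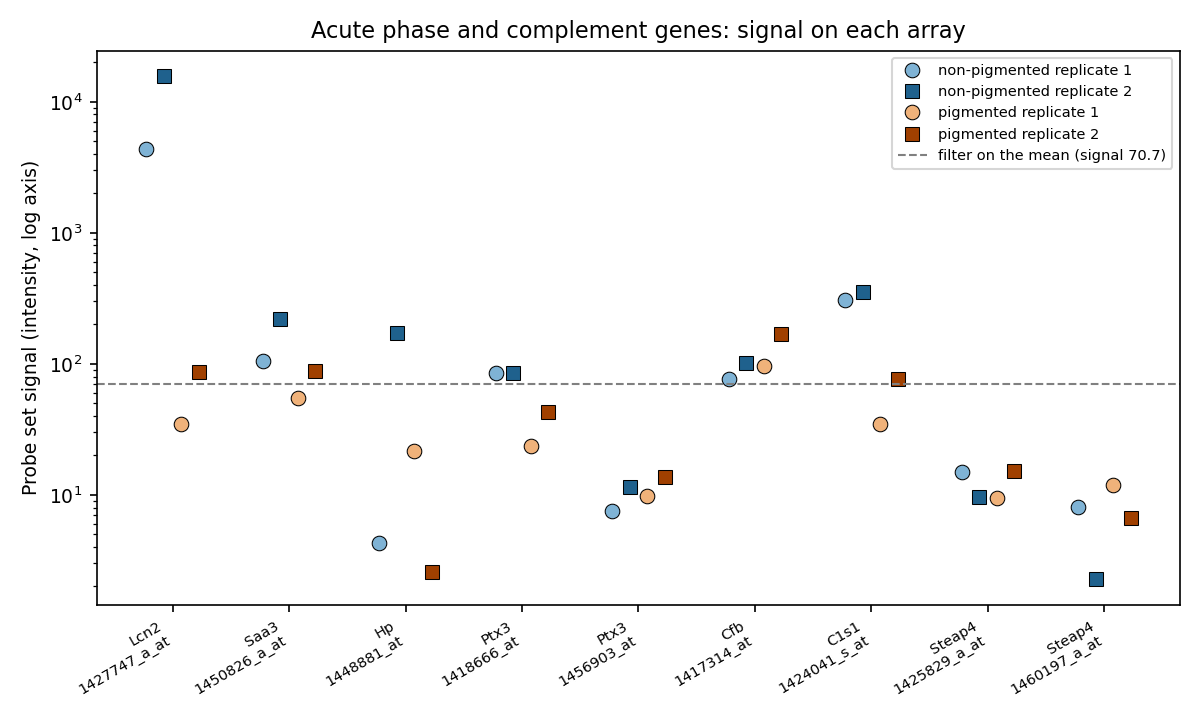
Probe set signal (intensity, log axis) of the 9 probe sets of 7 genes on each of the 4 arrays, blue for non-pigmented and orange for pigmented, with circles for replicate 1 and squares for replicate 2. The dashed line is the signal of 70.7 that corresponds to the filter on the mean log2 value. Lcn2 separates the lines by 115-fold in the mean, C1s1, Saa3 and the first Ptx3 probe set separate them by less, and the remaining probe sets overlap.

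Of the 2 complement proteases, C1s1 was lower in the pigmented line and Cfb was not. C1s1, the classical pathway protease, had signals of 309 and 350 on the non-pigmented and 34.4 and 76.8 on the pigmented arrays. The non-pigmented arrays were close together and both well above the pigmented arrays. The log2 difference was -2.34 ± 0.45, or 5.05-fold, with -1.81 and -2.86 within the 2 dates and -2.69 and -1.98 within the intact and the low 5′ pair. Its probe set has the suffix used for sequences shared by several transcripts, and a contribution of the related gene C1s2, which had no probe set with a single symbol here, was not tested.

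Cfb, factor B of the alternative pathway, had signals of 76.4 and 102 on the non-pigmented and 95.7 and 168 on the pigmented arrays. The groups overlapped, with the highest value on pigmented replicate 2. The log2 difference was 0.46 ± 0.40, at 0.995 within the first and -0.08 within the second date.

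Steap4, the cytokine-induced metalloreductase, was dim in both lines. Probe set 1425829_a_at lay between 9.46 and 15.2 and probe set 1460197_a_at between 2.26 and 12.0 on the 4 arrays. Neither separated the lines, with differences of 0.00 ± 0.20 and 0.26 ± 0.25. The first turned to -0.24 after median centring.

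Both pigmented arrays lay below both non-pigmented arrays in 4 of the 9 probe sets, against 13.8% of all 45037 probe sets, and above them in 0 of 9, against 26.2%. The median difference was -0.98 over the 9 probe sets and 0.18 over all probe sets. As this contrast chose the list, nothing is read from these shares. Genes were carried into the fit across the array when the mean log2 value of their brightest probe set reached 6.44, which is the 40th percentile over all probe sets. By this filter 4 of the 7 genes (Lcn2, Saa3, Cfb and C1s1) entered the fit and Hp, Ptx3 and Steap4 did not. A gene that passed through the line where it is high had to differ, so the 4 do not stand for the list.

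Of the 4 genes, limma called 1, Lcn2, at an adjusted p under 0.05, against 3.36% of all 12558 genes tested. By direction, 1 was called lower, against 2.03% of all genes, and 0 higher, against 1.33%. Counted from the lowest difference of the 12558 genes, Lcn2 had rank 6, C1s1 rank 388, Saa3 rank 1390 and Cfb rank 9164. C1s1 was also called with the integrity pair as a block, a fit that called 7.04% of all genes, and without pigmented replicate 2, a fit that called 4.52%. In each fit without an array, the single array left in its line is assumed to vary like the 2 arrays of the other line. These calls only place the genes on the scale of the array.

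**Figure D2:**
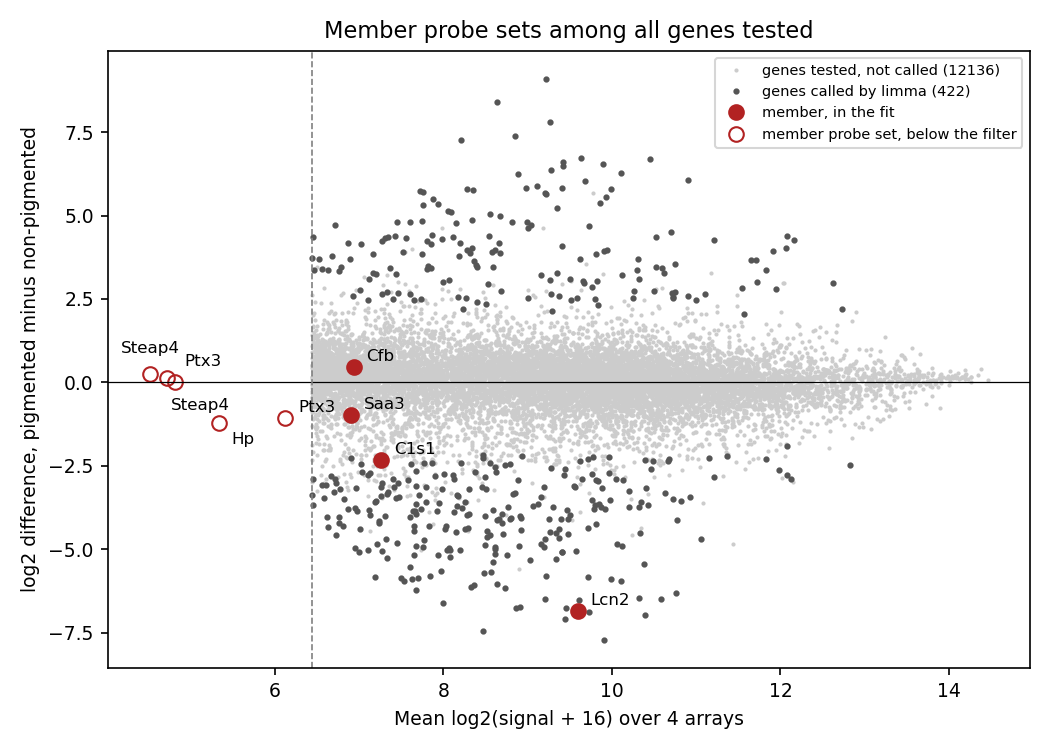
Mean log2(signal + 16) over the 4 arrays against the log2 difference, pigmented minus non-pigmented, for 12558 genes tested (422 called by limma in dark grey) and the 9 probe sets of the list in red. Open circles lie below the filter (dashed line) and were not in the fit. Lcn2 lies at -6.85 at the lower edge of the cloud, C1s1 at -2.34, and Saa3 and Cfb within the bulk of the genes.

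The genes with a pattern over the 4 arrays most like that of Lcn2 were found by the Euclidean distance between log2 values, after each gene was centred on its mean. The 6 nearest among the genes tested were Atp1b2 (distance 0.55), a sodium pump subunit, F3 (0.76), the tissue factor of coagulation, Fgfr1 (0.77), a fibroblast growth factor receptor, Plxnb3 (0.99), a semaphorin receptor, Pcolce (1.002), an enhancer of procollagen processing, and Chst11 (1.12), a sulphotransferase of chondroitin. Atp1b2 had signals of 2831 and 8662 on the non-pigmented and 9.54 and 69.0 on the pigmented arrays, so that replicate 2 was the higher in both lines, as for Lcn2. The other genes of the list were further from Lcn2, C1s1 at 4.66 with 324 genes nearer, Saa3 at 5.91 with 1033 nearer and Cfb at 7.38 with 8325 nearer. Distance over 4 arrays mostly measures the size of the difference between the lines and describes these arrays only.

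**Figure D3:**
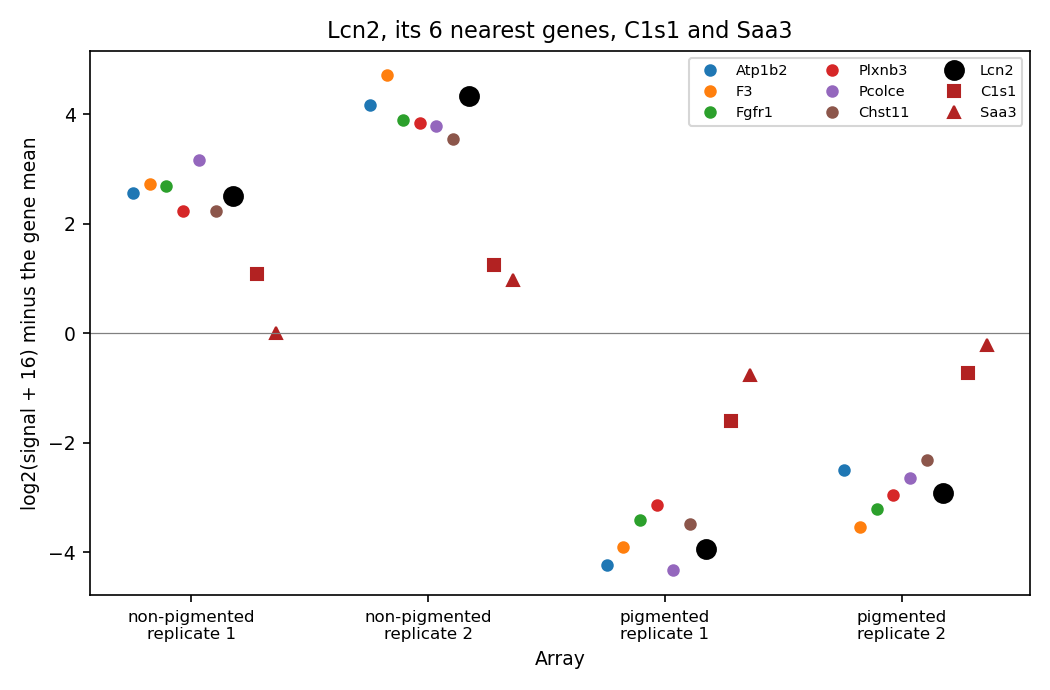
log2(signal + 16) minus the gene's mean for Lcn2 (large black points), its 6 nearest genes, C1s1 (squares) and Saa3 (triangles) on each of the 4 arrays, with points of an array set side by side. Lcn2 and the 6 genes lie between 2.23 and 4.71 on the non-pigmented and between -4.32 and -2.31 on the pigmented arrays, whereas Saa3 stays between -0.76 and 0.97.

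The other genes of the acute phase and complement systems were then examined in 11 lists of 194 genes, of which 170 had a probe set with a single symbol and 104 passed the filter. By limma, with Benjamini-Hochberg adjustment over all 12558 genes, 3 genes rose and 5 fell from the non-pigmented to the pigmented line and the other 96 were not called, so that 7.69% were called, against 3.36% of all genes. After centring each array on its median, 1 rose and 7 fell. C2 and Il17ra were then no longer called, and Agt and C1ra were. The median difference of the 104 genes was -0.10, against 0.07 over all genes tested. Several of these genes were known from earlier results when the lists were written, so the share is not independent evidence. Serpina3n, Osmr, Il17ra and Il17rc passed the filter through the line where each was high. Their means in the other line were 6.06, 5.76, 5.58 and 5.30. So did Agt and Il1r1, not called here, with pigmented means of 5.23 and 5.28. As among the members, such a gene had to differ, and these differences carry that limit.

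In the classical and lectin pathway list, 1 of 8 genes tested rose and 0 fell, with a median of -0.10. The gene that rose was C2, the classical pathway protease that C1s cleaves, which had signals of 362 and 562 on the non-pigmented and 2973 and 8610 on the pigmented arrays. All 3 of its probe sets had this direction, at 3.44 ± 0.61 (SE from limma) with an adjusted p of 0.0405 by limma for the brightest, and 4.36 and 5.42 for the others. The call was lost without non-pigmented replicate 1 (adjusted p of 0.125 by limma), without non-pigmented replicate 2 (0.0712), without the filter (0.0555) and after median centring (0.0525). C1ra, whose protease activates C1s within the C1 complex, had signals of 580 and 689 against 137 and 155, which differ by -2.003 ± 0.41 on the log2 scale (limma, adjusted p of 0.0644). It passed in 3 of 16 alternative fits, with an integrity block (adjusted p of 0.0293 by limma), with median centring (0.0463) and with the mean of probe sets (0.0466). C1ra and C1s1 were thus at lower and C2 at higher signals in the pigmented line, and the 3 C1q genes (C1qa, C1qb and C1qc) were too dim to be tested.

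Complement genes further along the cascade gave no call. By limma, 0 of 3 alternative and terminal pathway genes, 0 of 7 regulators and 0 of 2 receptors were called, while 0, 3 and 1 had an unadjusted p under 0.05, at median differences of 0.89, 0.12 and 0.75. The smallest p values were those of C8g (-0.86, adjusted p of 0.546 by limma), Clu (-3.47, 0.0737) and Cr2 (1.19, 0.340). The other regulators with an unadjusted p under 0.05 were higher in the pigmented line. They were Cd59a (1.47, adjusted p of 0.317 by limma), which passed with an integrity block, and Serping1 (1.09, 0.337). Clu, which encodes clusterin, an extracellular chaperone that inhibits the membrane attack complex, had signals of 572 and 1569 against 33.0 and 139, and all 4 of its probe sets were lower in the pigmented line. It passed with a date block (adjusted p of 0.0462 by limma), with an integrity block (0.00776), with the mean of its probe sets (0.0379), without non-pigmented replicate 1 (0.0432) and without pigmented replicate 2 (0.00360).

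Among other acute phase proteins, 1 of 8 genes tested fell and 0 rose, with a median of -1.503. Hpx (0.60), Crp (0.50), Cd14 (-0.11) and Hamp (-0.82) were tested and not called, with groups that overlapped. Serpina3n, an inhibitor of serine proteases, had signals of 14078 and 13657 on the non-pigmented and 21.5 and 102 on the pigmented arrays. It fell by 7.70 ± 0.62, with an adjusted p of 0.00585 by limma. It passed in each of 16 alternative fits. Agt, the angiotensinogen gene, had a difference of -5.02 ± 0.96 (adjusted p of 0.0523 by limma), with signals of 411 and 3441 against 30.7 and 14.3. It passed in 9 of 16 alternative fits, with an adjusted p by limma between 0.00422, with a date block, and 0.0490. Lbp, which binds bacterial lipopolysaccharide, had one of -2.18 ± 0.48 (0.0805), and Cp, the ferroxidase ceruloplasmin, one of -3.35 ± 0.93 (0.154). Lbp passed in 1 of 14 alternative fits, without pigmented replicate 1 (0.0264 by limma). Cp passed in 4 of 16, with adjusted p by limma of 0.00584 with an integrity block, 0.0338 with the mean of probe sets, 0.0449 without non-pigmented replicate 1 and 0.0146 without pigmented replicate 2, while its difference was -2.22 without non-pigmented replicate 2. The liver-type serum amyloid genes Saa1 and Saa2 were too dim to be tested, at differences of -0.03 and 0.70. In all, 17 of the 25 genes with a probe set were too dim, among them also Orm1, Apcs and the fibrinogen genes Fga, Fgb and Fgg. Differences of these dim genes had either sign, such as -1.23 for Orm3 and 0.79 for A2m. The median of -1.503 therefore holds for the 8 genes tested alone.

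The partners of lipocalin 2, haptoglobin and pentraxin 3 were examined in a list of which 8 genes were tested, with 1 fall, 0 rises and a median of 0.23. Lrp1, an endocytic receptor that takes up haem bound to haemopexin among many other ligands, had signals of 3837 and 4977 against 63.7 and 206. It fell by 5.04 ± 0.59 with an adjusted p of 0.0110 by limma. Its other probe set, which was not the one fitted, showed -2.20. The lipocalin 2 receptor gene Slc22a17 had signals of 381 and 1792 against 672 and 2135, with groups that overlapped and a difference of 0.52 ± 0.88 (adjusted p of 0.868 by limma). Tnfaip6, a hyaluronan-binding protein that associates with pentraxin 3, had signals of 366 and 225 against 120 and 70.4, a difference of -1.48 ± 0.49 (adjusted p of 0.236 by limma).

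None of the 11 Steap family and cellular iron genes tested was called by limma, with 1 (Slc11a2) at an unadjusted p under 0.05 and a list median of 0.09. Slc11a2, an iron importer, was at 1.20 ± 0.42 (adjusted p of 0.264 by limma), and only 2 of its 4 probe sets had this sign. The metalloreductase genes Steap1, Steap2 and Steap3 had differences of 0.09, -0.09 and 0.50, and the ferritin heavy chain gene Fth1 one of 0.09 ± 0.29 with signals between 15506 and 21707 on all 4 arrays.

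The regulators of acute phase genes gave no call at the RNA level. Of 16 NF-κB and IκB genes and 12 C/EBP, STAT3 and HNF genes tested, limma called 0 and 0, while 1 and 2 had an unadjusted p under 0.05, at medians of -0.22 and -0.33. Nfkbie, an inhibitor of NF-κB, had a difference of -1.66 ± 0.53 (adjusted p of 0.220 by limma) and Pim1, a kinase gene induced by STAT3, one of 2.07 ± 0.45 (0.0755). Both passed with an integrity block (adjusted p of 0.0484 and 0.0387 by limma). Nfkbiz, which encodes the IκBζ protein needed to induce Lcn2 in several cell types, had signals of 479 and 1467 against 206 and 431, a difference of -1.44 ± 0.67 (adjusted p of 0.432 by limma). Cebpd, a C/EBP factor of the acute phase, had signals of 6314 and 8915 against 4183 and 348, so that its difference of -2.60 ± 1.07 (0.362) lay largely on pigmented replicate 2. Without that array it was -0.84 (adjusted p of 0.574 by limma), and without pigmented replicate 1 it was -4.37 (0.00126). The dimmer second probe set of Cebpd had signals of 308 and 322 against 184 and 180, a difference of -0.75 with groups that did not overlap. Stat3 differed by -0.04 ± 0.37 and Cebpb by -0.26 ± 0.43.

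Calls among the cytokine and receptor genes went either way. Limma called 2 higher and 2 lower of 21 tested, with a median of -0.81, while 8 had an unadjusted p under 0.05. Those of the 8 that were not called were all lower in the pigmented line. They were Lif (-1.61, adjusted p of 0.148 by limma), Tnfrsf1a (-1.32, 0.172), Il11 (-1.44, 0.303) and Il1r1, described below. Tnfrsf1a passed with an integrity block, and only 1 of 2 Lif probe sets had this sign. Osmr, the oncostatin M receptor, had signals of 48.0 and 30.1 on the non-pigmented and 2175 and 7733 on the pigmented arrays. It rose by 6.24 ± 0.67 with an adjusted p of 0.00853 by limma, while its other probe sets showed 1.22 and 1.09 and the mean of probe sets 2.85 (0.0227). Il6st, the gp130 chain shared by the interleukin 6 family and a partner of Osmr, fell by 2.30 ± 0.43 (adjusted p of 0.0470 by limma) in the brightest of 4 probe sets, the others showing -0.97, -0.70 and 0.12. The call was lost in 8 of 16 alternative fits, namely with a date block (0.139), with pseudocount 1 (0.0528), without the filter (0.0620), with the mean of its probe sets (-0.96, 0.437) and when any 1 array was left out. By limma the adjusted p was 0.250 without non-pigmented replicate 1, 0.144 without non-pigmented replicate 2, 0.0508 without pigmented replicate 1 and 0.0705 without pigmented replicate 2.

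The 2 chains of the interleukin 17 receptor, a cytokine receptor that induces Lcn2 in epithelia, changed in opposite directions. Il17ra had signals of 21.1 and 45.7 against 271 and 557 and rose by 3.08 ± 0.55 (adjusted p of 0.0401 by limma), but not without non-pigmented replicate 1 (0.134), non-pigmented replicate 2 (0.0583) or pigmented replicate 2 (0.0572), nor after median centring (0.0551) or without the filter (0.0829). The second Il17ra probe set, which lay below the filter, showed 1.27 with overlapping groups. Il17rc had signals of 1105 and 1263 against 19.7 and 27.5 and fell by 4.92 ± 0.42 (adjusted p of 0.00610 by limma). Its second probe set was dim, at 12.4 and 27.8 against 106 and 28.8. That probe set showed 1.07, the other direction, with groups that did not overlap. With the mean of both probe sets Il17rc did not pass (-1.93, adjusted p of 0.0843 by limma). Il1r1, the interleukin 1 receptor, had signals of 355 and 85.9 against 29.2 and 17.6, a difference of -2.32 ± 0.70 (adjusted p of 0.192 by limma). Only 1 of its 2 probe sets had this sign. The cytokine genes Il6, Tnf and Il1a were too dim to be tested, and Il1b differed by -0.03 ± 0.46.

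Of 8 inflammatory chemokine and adhesion genes tested, 1 fell and 0 rose, with a median of -0.27. Mmp3, the stromelysin protease gene, had signals of 905 and 913 against 125 and 39.9 and fell by 3.38 ± 0.55 (adjusted p of 0.0316 by limma). It did not pass without non-pigmented replicate 1 (0.0777) or non-pigmented replicate 2 (0.0810), nor without the filter (0.0600). The chemokine gene Cxcl1 had a difference of 0.68 ± 0.45 (adjusted p of 0.603 by limma), and 12 of the 20 genes in this list were too dim to be tested.

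**Figure D4:**
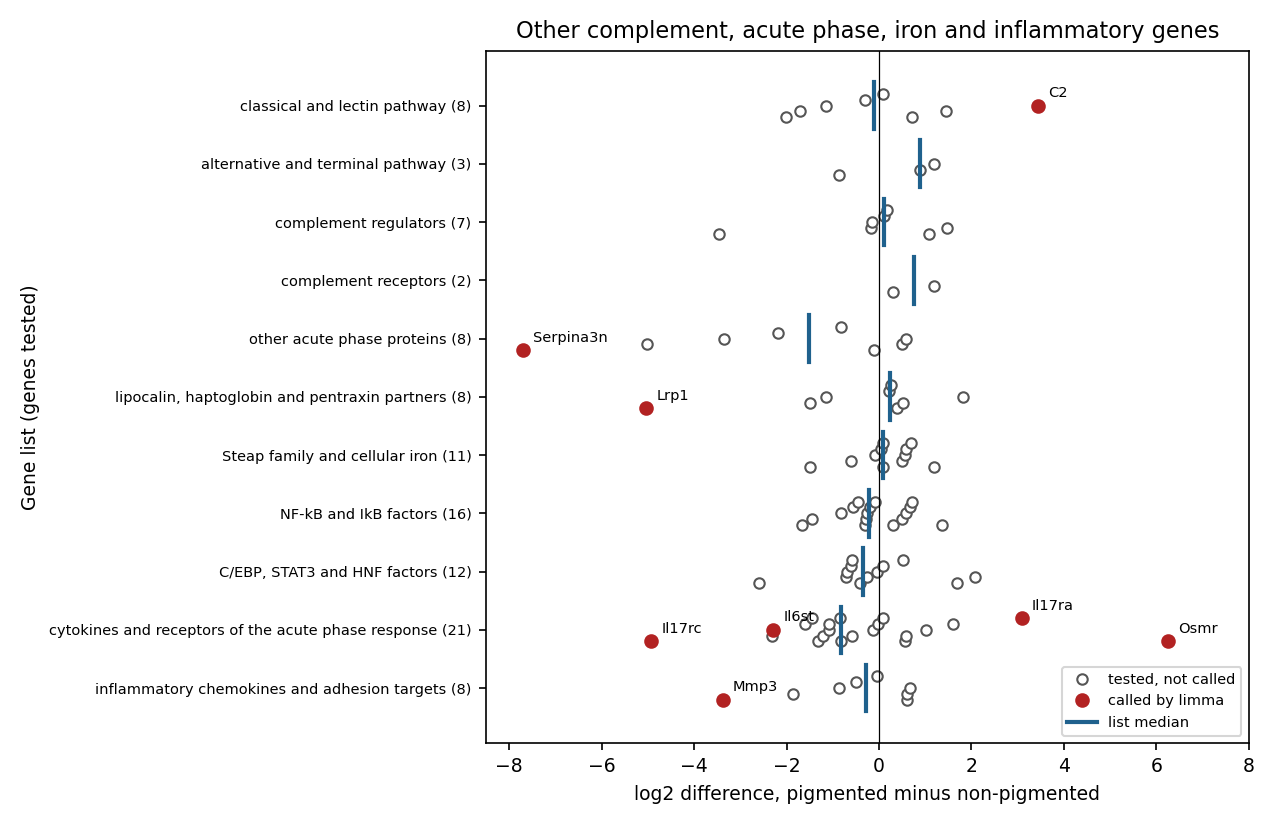
log2 difference, pigmented minus non-pigmented, of each gene tested in the 11 lists (number tested in brackets), with the 8 genes called by limma filled and named and a blue bar at the list median. Calls lie on both sides of 0, from -7.70 (Serpina3n) to 6.24 (Osmr).

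Markers of other cells that make acute phase proteins were measured beside these genes. The summed signal of 10 macrophage and monocyte markers was 1714 and 3303 on the non-pigmented and 1836 and 1497 on the pigmented arrays. By limma 0 of 7 tested were called, while 1 had an unadjusted p under 0.05, Lyz2 (800 and 2073 against 481 and 184, adjusted p of 0.234), and the leukocyte marker Ptprc was too dim to be tested, at 55.6 and 47.1 against 25.5 and 34.95. The 9 neutrophil markers on the array summed to 512 and 720 against 751 and 837, the 7 hepatocyte markers to 335 and 548 against 416 and 524, the 9 fibroblast markers to 1311 and 1286 against 4130 and 1849, and the 7 endothelial markers to 325 and 368 against 738 and 534. By limma 0 of 5, 0 of 3, 0 of 6 and 0 of 1 of these were called, while 0, 0, 1 and 0 had an unadjusted p under 0.05. The 8 keratinocyte markers summed to 1213 and 1757 against 734 and 1068, and 1 of 4 tested, Krt10, fell, by 3.02 ± 0.54 (adjusted p of 0.0426 by limma). Krt10 entered the fit through the non-pigmented line, as its pigmented mean was 5.21, and so had to differ. It did not pass without non-pigmented replicate 1 (adjusted p of 0.157 by limma) or non-pigmented replicate 2 (0.125), without the filter (0.0834) or with pseudocount 1 (0.0743), and with pseudocount 64 it passed at -2.004 (0.0307). Lyz2 passed without pigmented replicate 1 (adjusted p of 0.0452 by limma), and the fibroblast gene Col1a2 with an integrity block (0.0308, difference 2.11), with the mean of probe sets (0.0191, 3.03) and with probe sets free of a suffix (0.0101, 3.99). Each of these lists held differences of either sign. Of the macrophage and monocyte markers 5 of 10 were lower in the pigmented line, such as Lyz2 (-2.05), and the others higher, such as Csf1r (0.90). Of the keratinocyte markers 4 of 8 were lower, such as Krt10 and Pkp1 (-2.51), and the others higher, such as Krt5 (0.96). Of the 9 fibroblast markers 6 were lower, such as Postn (-0.92), and 3 higher, Col1a2 among them. Fbln1 alone had signals of 2419 on pigmented replicate 1 and 215 on pigmented replicate 2. Of the neutrophil, hepatocyte and endothelial markers 1 of 9, 2 of 7 and 1 of 7 were lower, and the others higher. The endothelial gene Vwf, too dim to be tested, had signals of 2.64 and 4.09 against 221 and 76.2. The part of these markers in the Lcn2 difference was not tested.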

How the data were processed

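Per the labels, biotin-labelled total RNA was hybridised to 1 array per sample. The authors deposited a linear signal (intensity) per probe set, made with Affymetrix Expression Console per the submitters' processing notes; its version and summary method are not given in the sources used here. Equal trimmed means show that the authors scaled the intensity values per array. No background or detection column was used here, so a dim probe set cannot be told from background.

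The table has 45101 probe sets, and its 64 controls did not enter the fit. The annotation gave 34945 a single symbol, 932 several and 9160 none. Each gene was represented by its probe set with the highest mean of log2(signal + 16), and genes below the 40th percentile of all probe sets (5635 of 18193) were left out. The fit used limma 3.58.1 in R 4.3.3 (lmFit, eBayes with trend) over 12558 genes and all 4 arrays, and genes with a Benjamini-Hochberg adjusted p under 0.05 were called. The code was tested on simulated data. Leaving out an array leaves 1 in its line, and limma then takes the spread from the other line, so the lone array is assumed to vary like the other line's arrays. Errors after ± are SDs of 2 arrays for means, array-based standard errors for differences of the members and limma standard errors for other genes. An exact permutation test of 2 against 2 arrays cannot give a two-sided p under 0.333, and the number of arrays limits the precision.

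The title dates group the arrays into pairs, which the reported fit did not use as a block. Across genes, the correlation between deviations from the group mean was -0.51 for arrays of 1 date, a value that 2 arrays per group make identical for both dates. Arrays of 1 date thus tended to deviate in opposite directions. For the integrity pairs, which cross the dates, the correlation has the opposite sign. The members, lists and tests were chosen with earlier results of these data known. Named are the members, up to 8 called genes of each list or the gene with the smallest p, the 6 genes nearest to Lcn2 and Tyr. Other list genes (C1ra, C1qa to C1qc, Agt, Lbp, Cp, Saa1, Saa2, Slc22a17, Tnfaip6, Nfkbiz, Cebpb, Cebpd, Stat3, Il1r1, Il1b, Cxcl1, Fth1 and the Steap genes among them) were named after their values were seen. Plots were made in Python 3.11.15 using matplotlib 3.10.9.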

Additional observations from a re-analysis of the deposited data

How the results depend on the processing

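No gene that limma called in the lists changed sign under any of the alternative fits run for it. With the integrity pair as a block, which is also the crossed pairing of the dates, 884 genes were called against 422, 16 of the listed pathway genes against 8 and 2 of the acute phase members against 1. With the date as a replicate block, these counts were 392, 9 and 1, and among the pathway genes the calls it changed were those of Il6st (lost), Clu and Agt (both gained). Without the filter 4 pathway genes were called. With only probe sets free of a suffix 0 members were called, because the Lcn2 probe set is then left out. Leaving out 1 array at a time gave 234 to 772 genes, 5 to 13 pathway genes and 1 to 2 members. The genome-wide counts were 294 without non-pigmented replicate 1, 234 without non-pigmented replicate 2, 772 without pigmented replicate 1 and 568 without pigmented replicate 2, and those of pathway genes 7, 5, 13 and 10. Centring on the median moved the median difference of all genes from 0.07 to -0.18. Of the other alternatives of single genes, 768 kept their side of the threshold or their value, 27 lost and 29 gained a call, 5 values of dim probe sets moved and 22, all of genes that were not called, turned in sign. After median centring Fth1 was at -0.15, Sox10 at -0.087 and Steap1 at -0.16. After quantile normalization Fth1 was at -0.084 and Stat3 at 0.031, and with the mean of probe sets Fth1 was at -0.034, Stat3 at 0.37 and Steap2 at 0.54. Without single arrays the differences ranged from -0.15 to 0.33 for Fth1, from -0.18 to 0.10 for Stat3, from -0.41 to 0.59 for Steap1, from -0.74 to 0.56 for Steap2, from -0.32 to 1.32 for Steap3, from -0.57 to 1.62 for Slc22a17, from -0.60 to 0.088 for Cebpb and from -0.30 to 0.24 for Il1b. Of the genes nearest to Lcn2, Atp1b2 was not called with pseudocount 1 (-2.02), which takes another of its probe sets, nor Fgfr1 with probe sets free of a suffix (-1.76). The causes were not tested. Signal over background limits Hp, Ptx3 and Steap4, which were too dim to be fitted.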

Other observations

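Ceruloplasmin (Cp), the copper-carrying ferroxidase of the acute phase, was called in 4 of 16 alternative fits and not in the one reported, but all 8 of its probe sets were lower in the pigmented line. It was singled out after its values were seen, so the following is a description. The brightest probe set, which represented it in the fit, had signals of 1982 and 9608 on the non-pigmented and 208 and 808 on the pigmented arrays, a log2 difference of -3.35. Probe set 1448735_at had signals of 875 and 3793 against 10.1 and 24.6, a difference of -5.82, and probe set 1448734_at had 2006 and 2085 against 26.8 and 41.3, a difference of -5.38. The smallest difference, -0.60, was that of probe set 1441326_at, which was dim on all 4 arrays. Which probe set stands for Cp therefore decides the size of its difference, and the probe sets with the larger differences were not those chosen by brightness.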
